A study of Homo sapiens with 74 samples.

Results

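The 5 neighbouring genes of the human Schlafen family SLFN5, SLFN11, SLFN12, SLFN12L and SLFN13, were followed in RNA-seq counts from 2 erythroleukaemia cell lines. They are 5 of the 28131 genes in each count table, lie together on chromosome 17, and were selected on the counts of SLFN11, which is switched on in K562 cells with DOT1L knocked out. In the comparison of that knockout with control the values of the members are therefore given as a description with no test, and counts of other genes past the test threshold there are background from which nothing is read. The study asked how the DOT1L complex acts in transcription. DOT1L is the methyltransferase of lysine 79 of histone H3, and ENL (gene symbol MLLT1) is a reader of acylated histones that works with it. K562 and HEL are established human erythroleukaemia lines. The K562 groups were control cells labelled wild type (2 distinct libraries), DOT1L-/- cells (DOT1L KO, 3 libraries) and ENL-/- cells (ENL KO, 3 libraries). The HEL groups were control cells (2 libraries) and cells with DOT1L knockdown (DOT1L KD, 2 libraries). The reagents used for knockout and knockdown, and whether a knockout line is a single clone, are not given in the sources used here.

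Schlafen proteins share an RNA-cutting core domain, and several of them are induced by type I interferon. SLFN11, SLFN5 and SLFN13 also carry a helicase-like part. SLFN11 is recruited to stalled replication forks by the single-strand binding protein RPA and makes cells sensitive to DNA-damaging drugs, and its silencing in tumour cells is a known route to drug resistance. SLFN13 cuts transfer and ribosomal RNA, SLFN12 becomes an active ribonuclease in a complex with the phosphodiesterase PDE3A, and SLFN5 is a nuclear protein described as a transcriptional co-repressor. Little is known of SLFN12L.

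On GRCh38, SLFN5 (chr17:35243036-35273654) is on the plus strand. The 4 others follow on the minus strand: SLFN11 (chr17:35350310-35373701), SLFN12 (chr17:35410922-35433176), SLFN13 (chr17:35435096-35448766) and SLFN12L (chr17:35474923-35537861). SLFN14 (chr17:35548125-35558091, minus strand) lies beyond them, its 3′ end 10264 bases from SLFN12L, and is given beside them as a further gene of the family. Its product cuts ribosome-bound RNA and is mutated in an inherited platelet disorder. Exonic lengths run from 2747 bases (SLFN12L) to 10590 bases (SLFN5). The genes are paralogs, so reads from stretches they share could have been split or dropped in the authors' counting.

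The RefSeq promoter table (GRCh38.p14) held windows for 3 of the 5 members, from 250 bases before to 50 bases after the start. They are printed because SLFN11 and SLFN12 had DOT1L KO libraries above the controls while SLFN12L did not. Capitals mark the STAT site TTCNNNGAA and the core of the interferon-stimulated response element, GAAANNGAAA. The windows are chr17:35373572-35373871, chr17:35433125-35433424 and chr17:35537629-35537928, each on the minus strand and written 5′ to 3′.
SLFN11: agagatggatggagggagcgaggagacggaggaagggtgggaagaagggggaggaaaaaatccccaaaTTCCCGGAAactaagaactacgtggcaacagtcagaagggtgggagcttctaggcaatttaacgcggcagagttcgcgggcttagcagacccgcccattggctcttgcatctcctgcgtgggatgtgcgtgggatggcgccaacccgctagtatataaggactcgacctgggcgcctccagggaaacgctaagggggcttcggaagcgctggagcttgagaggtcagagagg
SLFN12: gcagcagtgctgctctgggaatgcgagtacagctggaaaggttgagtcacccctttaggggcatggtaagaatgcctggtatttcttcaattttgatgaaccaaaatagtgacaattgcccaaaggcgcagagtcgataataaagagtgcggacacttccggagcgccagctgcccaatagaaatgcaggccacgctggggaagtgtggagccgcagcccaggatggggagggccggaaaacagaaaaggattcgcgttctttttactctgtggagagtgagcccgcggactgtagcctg
SLFN12L: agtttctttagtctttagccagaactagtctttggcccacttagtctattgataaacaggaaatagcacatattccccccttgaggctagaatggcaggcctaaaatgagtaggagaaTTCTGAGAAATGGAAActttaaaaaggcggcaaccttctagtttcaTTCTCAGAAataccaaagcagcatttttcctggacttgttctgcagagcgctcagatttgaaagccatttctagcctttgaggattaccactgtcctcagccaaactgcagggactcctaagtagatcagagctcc

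On either strand, the STAT site matched 1 time in the SLFN11 window, 2 times in that of SLFN12L and not in that of SLFN12. It was present in 7.66% of all 35116 windows. The response element core matched only the SLFN12L window among these 3, where it overlaps a STAT site, and 3.57% of all windows held it. The 4-letter core of ETS factor sites, GGAA, occurred 7, 5 and 4 times in the SLFN11, SLFN12 and SLFN12L windows, and 95.5% of all windows held it. In the SLFN11 window 2 of those matches lie inside the STAT site. The windows of SLFN11 and SLFN12 had 18 and 13 CpG dinucleotides, against a median of 14 over all windows. That of SLFN12L had 2, and 11% of windows had fewer. The RefSeq start lay 80, 2 and 183 bases from the outermost exon end in the count tables for SLFN11, SLFN12 and SLFN12L. A match is a description of letters and not evidence of binding.

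Library totals were 15404944 to 29236703 fragments in K562 and 12151495 to 12811688 reads in HEL. A limit of 3 counts, the most that a count of 0 allows, was worth 0.101 to 0.244 CPM (each count divided by the TMM-scaled library total, times 1e6) depending on the library. Columns 2 and 3 of the K562 control were identical in all 28131 genes and entered as 1 library. The targeted transcripts were still counted: in their own knockouts DOT1L stood at 182 CPM (control 263 CPM) and MLLT1 at 154 CPM (control 216 CPM), and DOT1L stood at 29.5 CPM in the HEL KD (control 92.4 CPM). The 8 erythroid markers examined exceeded 1 CPM in all 5 groups. Of 5 megakaryocytic markers, GP9, PF4 and GP1BA were at or under the limit in K562, and all 5 exceeded 1 CPM in HEL. The labels do not say that replicates came from separate cultures, so p-values measure only the spread between these libraries.

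In control K562 cells the 5 members were almost silent, whereas HEL cells expressed 3 of them. The 2 control K562 libraries held 6 and 10 fragments of SLFN11, 5 and 7 of SLFN13, 3 and 2 of SLFN5, 0 and 1 of SLFN12, and 10 and 9 of SLFN12L. The 2 control HEL libraries held 2630 and 2692 reads of SLFN11, 1340 and 1330 of SLFN13, 171 and 174 of SLFN12, 13 and 14 of SLFN5, and 2 and 2 of SLFN12L. The tables were counted and scaled separately, so this difference between the lines was not tested. Fewer expressing cells and less RNA per cell cannot be told apart in such bulk libraries.

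Levels of different members were compared per kilobase of exonic length (CPM per kb). In control K562 cells the order of levels was SLFN12L (0.162 ± 0.0101 CPM per kb), SLFN11 (0.0712 ± 0.0260), SLFN13 (0.0335 ± 0.00830), SLFN5 (0.0110 ± 0.00300) and SLFN12 (0.00844 ± 0.0119; SD, n = 2). The last pair were at or under 3 counts in both libraries and cannot be ordered. SLFN12L thus made up 57.2 ± 10.1% (SD, n = 2) of the summed level of the 5 genes, and SLFN11 24.5 ± 6.24%. In control HEL cells SLFN11 led with 40.1 ± 0.480 CPM per kb, followed by SLFN13 (12.6 ± 0.124) and SLFN12 (4.90 ± 0.0381; SD, n = 2 each). SLFN11 held 69.4 ± 0.352% of the summed level there, SLFN13 21.9 ± 0.365% and SLFN12 8.47 ± 0.00755%.

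**Figure D1:**
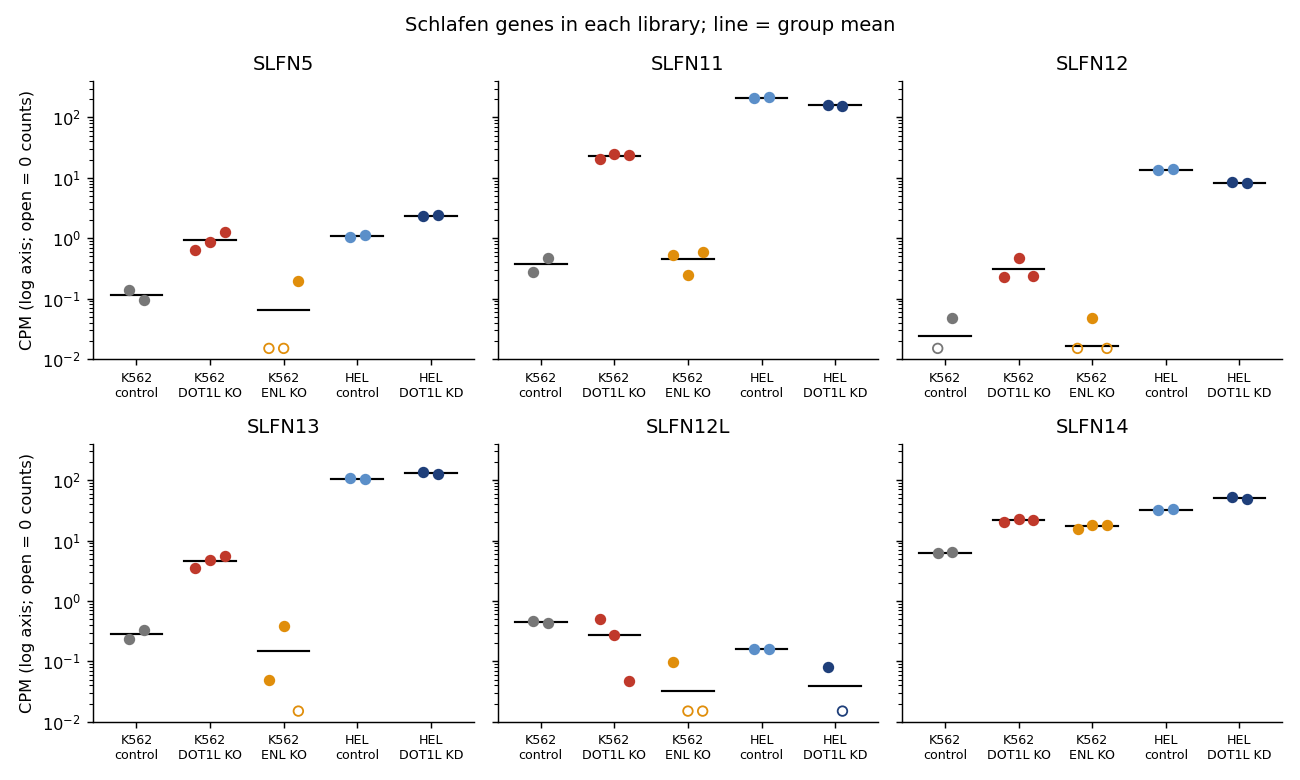
CPM of the 5 family members and of SLFN14 in each library (points, log axis, open symbols for 0 counts placed at the bottom) with the group mean as a line, for 3 K562 and 2 HEL groups. SLFN11 was 0.279 and 0.473 CPM in the K562 controls, 20.7 to 24.5 CPM in the DOT1L KO, and 155 to 214 CPM in HEL.

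In the K562 DOT1L KO, 4 of the 5 members were higher in every knockout library than in every control library. In 68.1% of the 14301 genes tested the libraries of the 2 groups also did not overlap, and 51.1% of those genes passed the test, so nothing is read from the members' count. SLFN11 was 20.7, 24.5 and 23.9 CPM in the 3 knockout libraries (456, 726 and 505 fragments) and 0.279 and 0.473 CPM in the controls. Its level was therefore 60.6-fold that of the control, or 5.92 (SE 0.226) on the log2 scale, the 101st largest absolute fold change among the 14301 genes. It remained below SLFN11 in HEL, where the lowest library held 155 CPM.

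SLFN13 was 3.50, 4.76 and 5.54 CPM in the DOT1L KO libraries and 0.232 and 0.331 CPM in the controls. The groups were well apart, with a log2 fold change of 4.00 (SE 0.448). SLFN5 was 0.636, 0.878 and 1.28 CPM in the knockout (14, 26 and 27 fragments) and 0.139 and 0.0945 CPM in the control. With 5 control fragments in all, its pooled ratio of 7.86 had a 95% exact counting interval of 3.20 to 25.0. SLFN12 did not pass the filter on low counts. Its libraries held 5, 14 and 5 fragments in the knockout and 0 and 1 in the control, a pooled ratio of 14.1 with a 95% exact counting interval of 2.29 to 579. These intervals cover counting error only.

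SLFN12L, the leading member in control cells, was the exception. Its DOT1L KO libraries held 11, 8 and 1 fragments and the controls 10 and 9, so the groups overlapped, and the pooled ratio was 0.617 (95% exact counting interval 0.313 to 1.22). The make-up of the family is given as a description. The shares are parts of the same sum. A larger share of SLFN11, and with it a smaller share of SLFN12L, follows from the choice of the family on SLFN11. The control shares rest on 19 fragments of SLFN12L and 16 of SLFN11. SLFN11 held 83.8 ± 0.324% (SD, n = 3) of the summed level in the knockout and SLFN12L 1.99 ± 1.80%. The summed level itself was 5.21 ± 0.481 CPM per kb (SD, n = 3) against 0.286 ± 0.0331 CPM per kb (SD, n = 2) in the control. SLFN14 was 20.3, 23.0 and 22.0 CPM in the knockout and 6.27 and 6.38 CPM in the control (log2 fold change 1.78, SE 0.113).

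**Figure D2:**
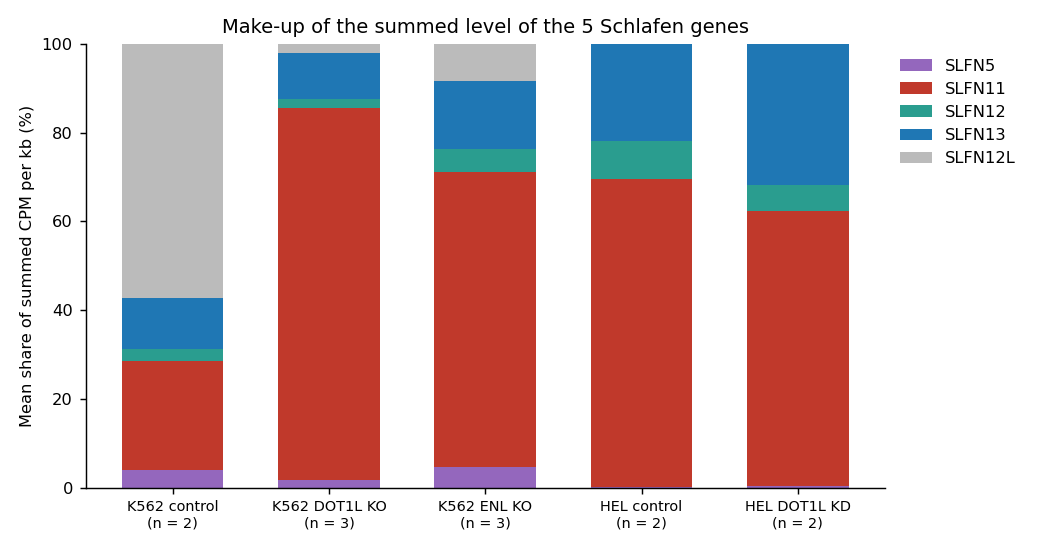
Mean share (percent) of each member in the summed CPM per kb of the 5 genes, stacked from 0 to 100, for each group with its number of libraries. SLFN12L fills 57.2% of the K562 control bar and SLFN11 83.8% of the K562 DOT1L KO bar. The shares of a bar are parts of the same sum, so this difference follows from the choice of the family on SLFN11.

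Transcripts of some other cell types also stood apart in the DOT1L KO. The 4 monocyte and macrophage markers examined summed to 292 to 323 CPM against 33.3 to 36 CPM in the control, nearly all of it LYZ (310 against 34.0 CPM), while CD14, CSF1R and FCGR3A each stayed under 1 CPM. The 4 fibroblast markers summed to 130 to 137 CPM against 14.1 to 15.1 CPM, most of it COL1A1 (117 CPM against 10.9 CPM) and COL3A1 (14.6 CPM against 1.92 CPM), while PDGFRB was 1 CPM against 1.68 CPM and DCN 0.192 CPM against 0.117 CPM. The 4 T cell markers, led by CD3D, summed to 16 to 20.3 CPM against 51.6 to 53.3 CPM, and of the 3 B cell markers MS4A1 was at 0 in every K562 group. Erythroid markers summed to 6150 to 6550 CPM against 3710 to 3990 CPM, and megakaryocytic markers to 33.3 to 35 CPM against 7.30 to 9.93 CPM. Their part in the Schlafen values was not tested.

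The ENL KO, which shares its control libraries with the DOT1L KO, did not show the same levels. Here 41.0% of the 14301 genes tested passed the test and 59.6% had groups that did not overlap. SLFN11 was 0.531, 0.243 and 0.586 CPM in the ENL KO (11, 5 and 9 fragments), overlapping the controls, with a log2 fold change of 0.23 (SE 0.457) given as a description because its pattern chose the family. The sign of that value changed without control 1 (-0.09). SLFN13 held 1, 8 and 0 fragments against 5 and 7 in the control, and the libraries overlapped. The pooled ratio was 0.565 (95% exact counting interval 0.210 to 1.46). The gene passed the filter on low counts only through the DOT1L KO libraries in the shared fit, so its fitted log2 fold change of -0.80 is given with no p. Without ENL KO library 2 that value was -3.11, from 1 and 0 fragments.

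SLFN12L had 2, 0 and 0 fragments in the ENL KO, below the 10 and 9 of the control, a pooled ratio of 0.0793 (95% exact counting interval 0.00896 to 0.329). It did not pass the filter on low counts. When all genes with at least 1 count were tested, 29.1% of 20566 genes passed, and SLFN12L had a log2 fold change of -3.46 (SE 0.961) with an edgeR adjusted p of 0.00322. That setting is an alternative to the main filter, and SLFN5, SLFN12 and SLFN13 did not pass the threshold in it. SLFN5 (0, 0 and 3 fragments) and SLFN12 (0, 1 and 0) were at or under 3 counts in every ENL KO and control library, so no fold is given. The labels do not state whether the ENL KO libraries were prepared together with the controls, so such a batch and the knockout cannot be told apart.

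SLFN14 was the family gene that rose in the ENL KO. It was 15.5, 18.3 and 18 CPM there against 6.27 and 6.38 CPM, a log2 fold change of 1.45 (SE 0.115) with an edgeR adjusted p of 3.66e-07, and its groups did not overlap. Markers also differed there: the megakaryocytic list summed to 29.4 to 36.8 CPM in the ENL KO against 7.30 to 9.93 CPM, with GP9, PF4 and GP1BA at or under the limit, and the erythroid list to 5440 to 5670 CPM against 3710 to 3990 CPM. The monocyte and macrophage list summed to 19.5 to 21.1 CPM against 33.3 to 36 CPM, the T cell list to 61.5 to 72.2 CPM against 51.6 to 53.3 CPM, the B cell list to 0.716 to 0.973 CPM against 2.46 to 2.51 CPM, and the fibroblast list to 15.5 to 17.6 CPM against 14.1 to 15.1 CPM. Their part in the Schlafen values was not tested. Set side by side, the log2 fold changes of the DOT1L KO and the ENL KO against their common controls were 5.92 and 0.23 for SLFN11, 4.00 and -0.80 for SLFN13, and 1.78 and 1.45 for SLFN14. No test was made between the knockouts, because the DOT1L KO libraries chose the family.

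In HEL, whose libraries played no part in the choice, DOT1L knockdown left the family expressed and moved its members in both directions. Of the 12635 genes tested, 55.0% passed the test and 75.9% had groups that did not overlap. Of the genes past the threshold 49.1% were higher, and 61.4% with upper-quartile scaling in place of TMM. The members tested were 4 of 5, and all 4 passed, 2 higher and 2 lower, with the same signs under each of the 3 other scalings.

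SLFN11 was 163 and 155 CPM in the HEL KD and 210 and 214 CPM in the control. It fell by 0.41 on the log2 scale (SE 0.0382, Benjamini-Hochberg adjusted p 2.04e-13 by the quasi-likelihood method of edgeR), and the groups did not overlap. SLFN12 was 8.42 and 8.13 CPM against 13.6 and 13.8 CPM. It fell by 0.73 (SE 0.132, edgeR adjusted p 5.52e-06), with both KD libraries below both controls.

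SLFN13 was 135 and 125 CPM in the KD against 107 and 105 CPM, and rose by 0.29 on the log2 scale (SE 0.0454, edgeR adjusted p 2.19e-07). SLFN5 was 2.3 and 2.44 CPM against 1.04 and 1.11 CPM. It rose by 1.14 (SE 0.328, edgeR adjusted p 0.00287), from 13 and 14 reads to 29 and 30, but not past the threshold in DESeq2 (adjusted p 0.0857, the highest over the alternatives, where the lowest was 0.0015). SLFN12L had 1 and 0 reads against 2 and 2, too few for a fold. SLFN14 rose by 0.63 (SE 0.0702, edgeR adjusted p 6.96e-11), from 31.5 and 33.6 CPM to 52.0 and 48.5 CPM.

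The summed level of the 5 members was 48.9 ± 2.07 CPM per kb in the HEL KD and 57.8 ± 0.398 CPM per kb in the control (SD, n = 2 each). SLFN11 held 61.8 ± 0.362% of it in the KD and SLFN13 31.7 ± 0.462%, against the 69.4% and 21.9% of the control. Over the groups, SLFN11 was ordered HEL control, HEL KD, K562 DOT1L KO, and then the ENL KO and control of K562, whose libraries overlapped. SLFN13 had the order HEL KD, HEL control, K562 DOT1L KO, followed by K562 control and ENL KO, again overlapping. In HEL the megakaryocytic markers summed to 1850 to 1860 CPM in the KD against 2430 to 2480 CPM in the control, although GP1BA was higher (64.7 against 45 CPM), and erythroid markers to 8050 to 8720 CPM against 5880 to 6010 CPM. The globin gene HBG2 was the largest part of the erythroid sum (3940 against 2390 CPM), and GATA1 went the other way (292 against 304 CPM). The T cell list, nearly all of it CD4, summed to 145 to 150 CPM against 173 to 179 CPM, with CD3D and CD3E at or under the limit, and the fibroblast list to 1.22 to 3.10 CPM against 3.89 to 5.27 CPM. The monocyte and macrophage list summed to 47.3 to 49.8 CPM against 44.7 to 51.2 CPM, and the B cell list to 0.954 to 1.22 CPM against 1.84 to 1.98 CPM. Their part in the Schlafen changes was not tested.

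The genes around the cluster were examined next. Within 500 kb of the 5 members lie 31 other genes, and the filter kept 12 of them for K562 and 11 for HEL. With DOT1L knocked out, 3 of the 12 were higher past the threshold, SLFN14, the RAS-like gene RASL10B (1.94, SE 0.244, on the log2 scale) and the chaperonin gene CCT6B (0.91, SE 0.324). Another 5 were lower and 4 did not pass. Over all genes tested, 26.9% were higher and 24.2% lower, so nothing is read from these counts. The median log2 fold change of the 12 was -0.20, against 0.01 over all genes tested. On the SLFN5 side the nearest genes, UNC45B and SLC35G3, had 0 counts in every library, and the nearest gene tested was NLE1, 100721 bases away (-0.25, SE 0.0755).

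In the ENL KO SLFN14 was the 1 neighbour higher past the threshold, 3 were lower, RASL10B among them (-1.65, SE 0.377, edgeR adjusted p 0.00335), and 8 did not pass (median -0.04). In HEL 3 rose, 4 fell and 4 did not pass (median -0.17). Over all genes tested, 18.8% were higher and 22.2% lower in the ENL KO, and 27% and 28% in the HEL KD. The gene after SLFN14 among those tested, LINC02001, was lower in the DOT1L KO (-0.72, SE 0.151) and rose in the HEL KD (0.67, SE 0.181, edgeR adjusted p 0.00147).

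**Figure D3:**
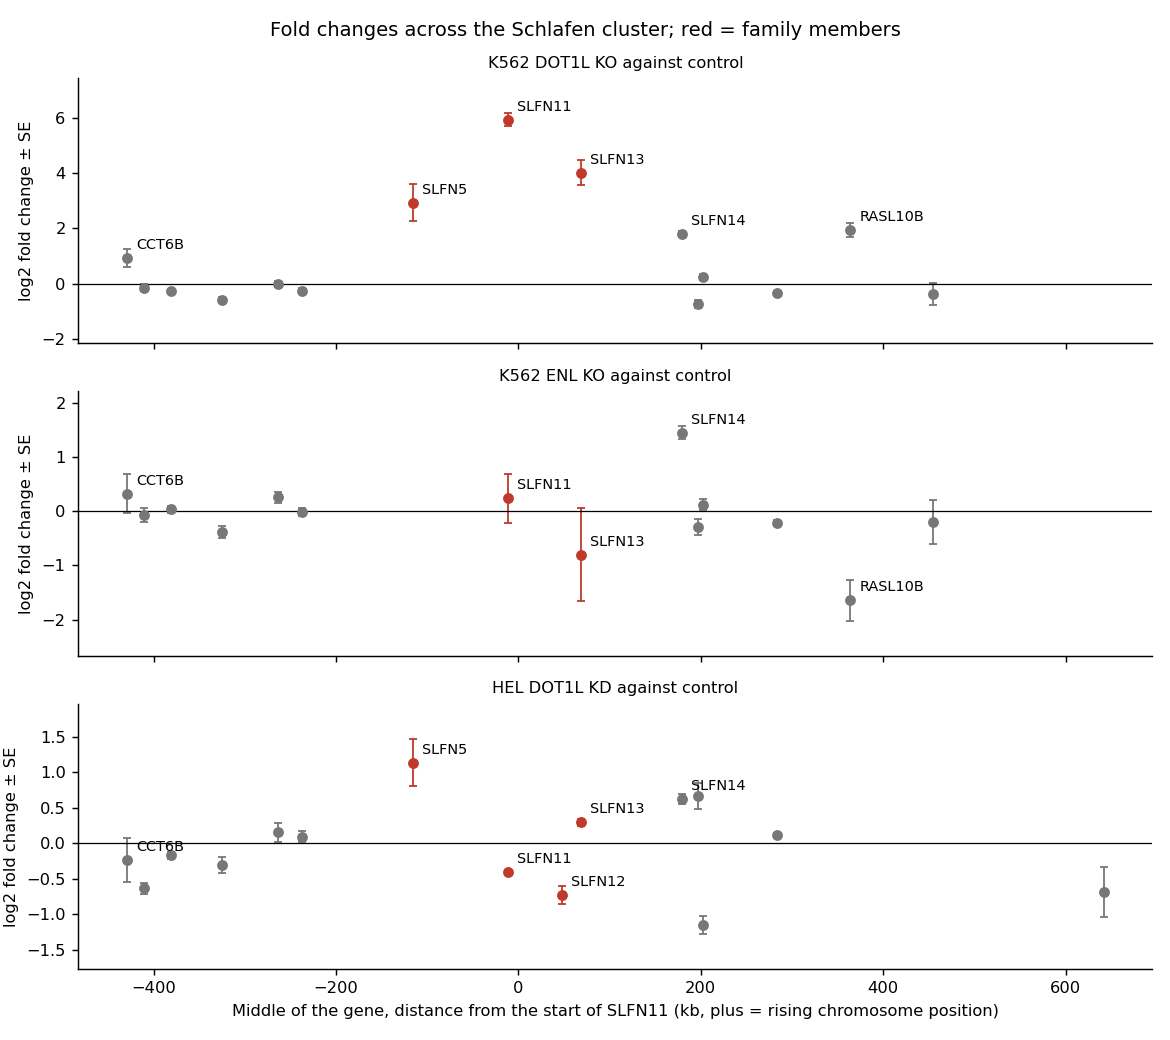
Log2 fold change with its SE (vertical axis) of each tested gene within 500 kb of the cluster against the distance of its middle from the start of SLFN11 in kb, for the 3 comparisons with a control, with members in red. SLFN5 is left out of the ENL KO panel, because it was at or under 3 counts in every library compared. SLFN13 is in that panel only because the DOT1L KO libraries carried it past the filter. In the DOT1L KO the members stand between 2.92 and 5.92, and the other genes between -0.72 and 1.94, with SLFN14 at 1.78.

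Interferon induces Schlafen genes together with many antiviral genes, so a list of 40 interferon-stimulated genes was read beside them. In the DOT1L KO 32 were tested, of which 20 were higher past the threshold, 6 lower and 6 not past it, with a median log2 fold change of 0.68. Over all genes tested, 26.9% were higher and 24.2% lower in that comparison. The median of the list lay above that of all genes tested (0.01), while some genes went the other way. MX1, MX2, XAF1, HERC5, HERC6, IFIT1, IFIT2 and TRIM22 passed the filter on low counts only through the DOT1L KO libraries. Their entry rests on being high there, which raises the count of higher genes and the median. Nothing is read from these counts or from the median, and a link with the Schlafen values was not tested. HERC6, a ubiquitin ligase gene, was 8.80 ± 0.178 CPM (SD, n = 3) against 0.187 ± 0.0640 CPM (SD, n = 2), and the antiviral GTPase gene MX2 was 4.52 ± 0.868 CPM (SD, n = 3) against 0.117 ± 0.0346 CPM (SD, n = 2). MX1 had 0 counts in both controls and 0.824 ± 0.101 CPM (SD, n = 3) in the knockout, and XAF1, a pro-apoptotic gene, was 3.23 ± 0.139 CPM there with at most 1 count in a control library. IFITM3, which blocks viral entry, went the other way, with 15.0 ± 1.12 CPM (SD, n = 3) against 109 ± 0.486 CPM (SD, n = 2).

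In the ENL KO 3 of the 32 genes rose and 12 fell. Of the 17 that did not pass, MX1, MX2, XAF1 and HERC5 were at or under 3 counts in every ENL KO and control library and had entered the test through the DOT1L KO libraries. IFIT1, IFIT2, TRIM22 and HERC6, also not past the threshold, had group means of 0.141 to 0.335 CPM in the control and ENL KO. They too passed the filter only through the DOT1L KO libraries, but stay among the 28 other genes. The median of these 28 was -0.14, against 0.003 over all genes tested. Of all genes tested, 18.8% were higher and 22.2% lower. USP18, which trims the ubiquitin-like modifier ISG15 from proteins, fell from 5.55 ± 0.165 CPM (SD, n = 2) to 0.453 ± 0.0715 CPM (SD, n = 3; log2 fold change -3.58, edgeR adjusted p 2.44e-08). MX2, XAF1 and HERC6 stayed at 0.140, 0.0324 and 0.243 CPM, close to the controls. HEL cells with the KD had 7 of 35 rising, 19 falling and 9 not past the threshold (median -0.24), against 27% higher and 28% lower over all genes. With upper-quartile scaling 7 rose and 17 fell. HERC6 was 11.6 CPM in the HEL control and 11.9 CPM in the KD (edgeR adjusted p 0.821), and MX2 rose by 0.15 from 54.1 to 60.0 CPM (edgeR adjusted p 0.0268).

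**Figure D4:**
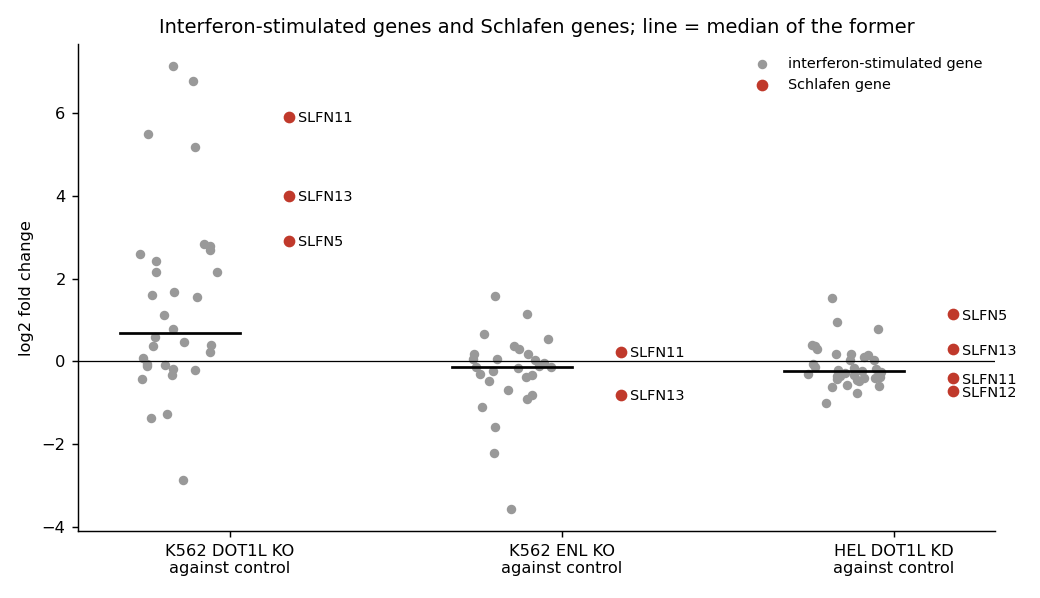
Log2 fold change of the tested interferon-stimulated genes (grey, with their median as a line) and of the Schlafen members (red) in the 3 comparisons with a control. Genes with 3 counts or fewer in every library of a comparison are left out, and the highest grey point of the DOT1L KO, MX1, is a fitted value against 0 control counts. The medians are 0.68, -0.14 and -0.24. In the ENL KO, the points of IFIT1, IFIT2, TRIM22, HERC6 and SLFN13 are there only because the DOT1L KO libraries carried these genes past the filter. In the DOT1L KO, the grey points of IFIT1, IFIT2, TRIM22, HERC5, HERC6, MX1, MX2 and XAF1 entered the same way, which raises that median.

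The signalling genes upstream went both ways, in counts to be set beside the shares over all genes given above. Of 14 interferon signalling genes, 13 were tested in K562, with 3 higher, 3 lower and 7 not past the threshold in the DOT1L KO (median 0.04). IRF1, a transcription factor of the interferon response, was 23.1 ± 1.14 CPM (SD, n = 3) there against 9 ± 0.373 CPM (SD, n = 2). In the ENL KO 3 rose, 4 fell and 6 did not pass. IRF1 fell by 0.56 (edgeR adjusted p 0.00117) and the feedback inhibitor SOCS1 fell by 1.59 (edgeR adjusted p 1.77e-06). Of 12 tested in HEL, 4 rose, 4 fell and 4 did not pass. IRF9, a DNA-binding factor of the interferon response, rose by 0.41 there (edgeR adjusted p 3.29e-05).

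ETS transcription factors are known activators of SLFN11, and Polycomb, DNA methylation and histone deacetylation are known to silence it. Of 13 such regulators, 11 were tested in K562, with 1 higher and 3 lower in the DOT1L KO, and 3 higher and 2 lower in the ENL KO, where ETS1 was at or under 3 counts in every library compared. ETS1 was 0.141 ± 0.00169 CPM (SD, n = 2) in control cells, 0.672 ± 0.251 CPM (SD, n = 3) without DOT1L and 0.103 ± 0.0407 CPM (SD, n = 3) in the ENL KO, all low. It was the 1 higher gene in the DOT1L KO, and passed the filter on low counts only through those libraries. FLI1, named after its values were seen, had 0 counts in all K562 libraries, those of the DOT1L KO included. HEL expressed both strongly, with ETS1 at 753 ± 6.61 CPM and FLI1 at 575 ± 3.11 CPM in the control (SD, n = 2 each). With the knockdown 4 of 13 rose and 6 fell, against 6 and 5 with upper-quartile scaling. ETS1 fell by 0.28 (edgeR adjusted p 2.94e-12) and FLI1 by 0.17 (edgeR adjusted p 3.41e-06). The counts of this list also stand beside the shares over all genes given above. A difference from those shares was not tested.

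Among the silencing genes, EZH2, the Polycomb methyltransferase, was 167 ± 10.7 CPM (SD, n = 2) in control cells and 164 ± 6.39 CPM (SD, n = 3) without DOT1L, and the DNA methyltransferase gene DNMT3B was 97.8 ± 2.74 CPM (SD, n = 3) against 167 ± 7.14 CPM (SD, n = 2). HDAC3 (108 against 142 CPM) and DNMT1 (466 against 547 CPM) were also lower in the DOT1L KO than in its control. The other silencing genes did not pass the threshold there. In the HEL KD the silencing genes moved both ways. DNMT3B rose by 1.08 (from 112 to 237 CPM, edgeR adjusted p 1.82e-29), EZH2 by 0.37 (edgeR adjusted p 4.45e-08), HDAC3 by 0.35 (edgeR adjusted p 4.07e-08) and HDAC1 by 0.32 (edgeR adjusted p 2.07e-10). The Polycomb subunit gene SUZ12 fell by 0.41 (edgeR adjusted p 7.04e-12), and EED, DNMT1 and UHRF1 fell by 0.22, 0.14 and 0.25, also past the threshold.

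Of 11 genes for partners of Schlafen proteins, 10 were tested in K562. In the DOT1L KO 1 was higher and 4 lower (median -0.18), and in the ENL KO 4 rose and 1 fell (median 0.02). With upper-quartile scaling those last counts were 2 and 1. Of all genes tested, 26.9% were higher and 24.2% lower without DOT1L, against 18.8% and 22.2% without ENL. In the HEL KD 7 of 11 fell and none rose at the edgeR threshold (median -0.26). Upper-quartile scaling gave 2 rising and 7 falling. Over all genes tested there, 27% were higher and 28% lower with TMM. The list was not tested against these shares. RPA2, a subunit of the RPA complex that recruits SLFN11, fell by 0.82, from 218 to 123 CPM (edgeR adjusted p 1.88e-24). PDE3A, the partner of SLFN12, fell by 0.80, from 125 ± 1.01 to 71.7 ± 0.572 CPM (SD, n = 2 each, edgeR adjusted p 8.74e-21). In K562 PDE3A had 0 counts in the control and ENL KO libraries and was 0.0428 CPM in the DOT1L KO, so SLFN12 and PDE3A were each near or under the limit there.

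Last, the genes whose log2(CPM + 0.5) most resembled that of a member over the 12 distinct libraries were listed among 14390 genes. The libraries share 2 cell lines and few groups, so these correlations describe the groups and carry no p. For SLFN11 they were ARHGAP15 (Pearson r 0.999), SYNE1 (0.998), RIN3 (0.997), TAGAP (0.997) and TF (0.996). ARHGAP15 was 3.59 ± 0.540 CPM in the K562 control, 39.5 ± 1.51 CPM in the DOT1L KO, 4.35 ± 1.12 CPM in the ENL KO, 163 ± 7.53 CPM in the HEL control and 143 ± 2.16 CPM in the HEL KD (SD over the 2 or 3 libraries of a group). Over the 8 K562 libraries alone its r was 0.998, the 6th highest, and by Spearman's rho over all 12 it ranked 2nd. The other 4 were less stable: SYNE1, RIN3, TAGAP and TF ranked 507, 612, 540 and 288 by Spearman's rho, and 57, 154, 28 and 4 by r over the K562 libraries.

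The genes most like SLFN13 were SLC37A1 (r 0.998), SLC22A15 (0.998) and ADGRG6 (0.997), those most like SLFN12 were FOXP2 (0.999), CPVL (0.998) and NMI (0.998), and those most like SLFN5 were PON2 (0.989), KRCC1 (0.982) and GYPB (0.971). None lies in the Schlafen cluster. FOXP2 had 0 counts in the K562 control and was 14.2 ± 0.611 CPM in the HEL control and 8.52 ± 0.205 CPM in the KD (SD, n = 2 each), close to SLFN12 in each HEL group. Among the members, r over the 12 libraries was 0.968 between SLFN11 and SLFN13, 0.962 between SLFN12 and SLFN13, 0.927 between SLFN5 and SLFN11, and between -0.25 and -0.15 for SLFN12L with the other members. Over the 8 K562 libraries alone the values for SLFN12L had the other sign, between 0.104 and 0.197.

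**Figure D5:**
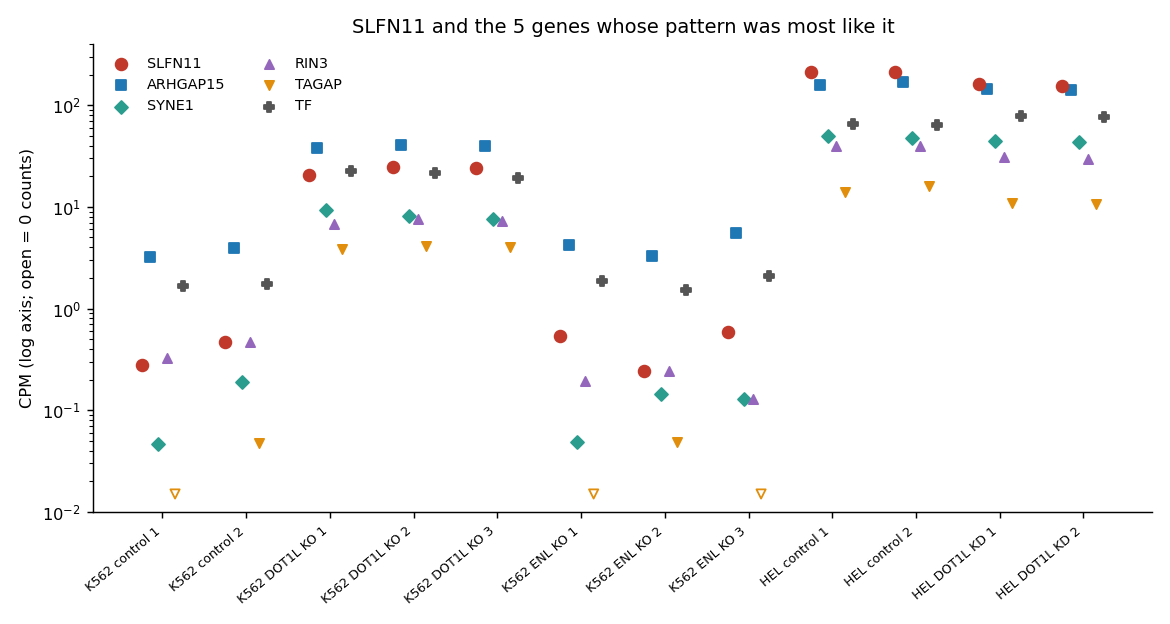
CPM in each of the 12 distinct libraries (log axis, open symbols for 0 counts placed at the bottom) of SLFN11 and the 5 genes with the highest Pearson r with it. All 6 genes are higher in each DOT1L KO library than in each K562 control and ENL KO library, and TF alone among them has its HEL KD libraries above the HEL controls (77.6 against 64.4 CPM).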

How the data were processed

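Of the 74 samples of the series, the 13 RNA-seq samples were used and the other 61 were not analysed here. Libraries were strand-marking poly(A) RNA libraries, per the labels' protocols. The authors deposited counts per gene, as fragments for K562 and reads for HEL, per the file headers. The submitters' processing notes list fastp 0.13.1, HISAT2 2.1.0, featureCounts 1.6.1, Bowtie2 2.3.4.1 and deepTools, and the builds hg38 and hg19, without roles; the use of strand in counting is not given in the sources used here. Groups follow the labels. K562 control columns 2 and 3 were identical and counted as 1 library.

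Genes were filtered with edgeR's filterByExpr (version 4.0.16, R 4.3.3; minimum count 10, minimum total 15), scaled with TMM, and tested with edgeR's quasi-likelihood test, with a separate fit for each line that held all its groups. Adjustment was by Benjamini-Hochberg over all genes tested, with a threshold of 0.05. The procedure was tested on simulated data. Alternatives were other scalings, filters, DESeq2 1.42.0, a replicate block, a prior count of 2 in place of 0.125 and leaving out each library. The members and gene lists were chosen with earlier results of these data known. Named genes were the members, the targeted genes, neighbours within 500 kb, the genes most like each member (at least 1 CPM in a group), and up to 6 genes a list with the largest fold change past the threshold in any comparison. A list of 13 replication stress checkpoint genes is described in the closing section.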

Additional observations from a re-analysis of the deposited data

Results flagged for a closer look

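The direction of 2 members differed between the cell lines on loss of DOT1L. SLFN11 had a log2 fold change of 5.92 in the K562 DOT1L KO, with every knockout library above every control, and of -0.41 in the HEL KD, with every KD library below every control. SLFN12 had a pooled ratio of 14.1 in the K562 DOT1L KO, from 24 fragments against 1, and a log2 fold change of -0.73 in the HEL KD, again with no overlap in either line. The difference between the lines was not tested for either gene. Cell line, knockout against knockdown, and fragment against read counting go together here and cannot be told apart.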

How the results depend on the processing

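Of 213 values recomputed under other settings, 209 were unchanged by the rule set for their kind. A tested fold change kept its direction and side of the threshold, and one without a test stayed within the spread between replicates. A count of genes stayed within a set factor of the main count, and a correlation within a set distance of the main r. In the HEL KD, DESeq2 called 4561 genes in place of 6951, and SLFN5 (log2 fold change 1.14, adjusted p 0.0857) was no longer past the threshold. With a prior count of 2 the log2 fold change of SLFN5 in the K562 DOT1L KO was 2.27 in place of 2.92. Leaving out 1 library at a time gave SLFN13 in the ENL KO values from -3.11 to -0.34. No p is given for it. Its 14 values, which are among the 213, say nothing about stability, because the gene passed the filter only through the DOT1L KO libraries. Over the same omissions SLFN11 ranged from 5.59 to 6.34 in the K562 DOT1L KO and from -0.45 to -0.38 in the HEL KD. With an arm of 1 library left, that library was assumed to vary like the other groups. Same-numbered K562 libraries deviated together with correlations of 0.0684 to 0.355, and differently numbered ones with -0.281 to 0.172. Those of HEL with the same number had -0.00264. The labels do not pair the libraries, so the main fit holds no pairs. Whether same-numbered K562 libraries share an effect was not tested. A replicate block gave 8340, 7021 and 6903 genes past the threshold in the DOT1L KO, ENL KO and HEL KD. The main fit gave 7305, 5863 and 6951. The block changed no call of the 4 members tested in the HEL KD. Depth limits SLFN5, SLFN12 and SLFN12L in K562, where a few fragments decide each ratio.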

Other observations

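The checkpoint that acts beside SLFN11 at stalled replication forks was read from a list of 13 genes. In each line 12 of them were tested. The counts below stand beside the shares over all genes given in the Results, and were not tested against those shares. In the K562 DOT1L KO 3 were higher, 1 was lower and 8 did not pass (median log2 fold change 0.09), and in the ENL KO 4 rose, 1 fell and 7 did not pass (median 0.09). TIMELESS, which holds the fork together, rose by 0.44 in the ENL KO (edgeR adjusted p 2.04e-05), and the kinase gene WEE1 by 0.30 (edgeR adjusted p 0.00489). In the HEL KD 3 rose, 4 fell and 5 did not pass (median 0.05). CHEK1, the effector kinase of this checkpoint, fell by 0.59 (edgeR adjusted p 7.13e-20) and TOPBP1, which activates the kinase ATR, by 0.35 (edgeR adjusted p 3.19e-12), while TIMELESS rose by 0.23 (edgeR adjusted p 1.58e-06).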
